A study of Mus musculus with 6 samples.

Results

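In the mouse gene annotation that the authors deposited, 1345 pairs of protein-coding genes stood head to head. Each pair joins a gene on the minus strand with a gene on the plus strand, placed so that the 5' ends face each other or overlap. A gene was taken as coding when its name had at least 1 coding row and a single gene ID on the main chromosomes of mm10, and its span ran from the lowest exon start to the highest exon end. A pair was kept when the minus gene started and ended before the plus gene did, and when the plus gene began no more than 1000 bases past the end of the minus gene. The 1345 pairs hold 2667 of 22731 coding genes (11.7%). Of these genes, 2645 stood in 1 pair and 21 in 2 pairs, and Frs3 stood in 3. The annotation was made to count RNA sequencing reads of mTAL cells, an immortalised line from the thick ascending limb (TAL) of the mouse kidney, transduced with a lentivirus for human uromodulin fused to GFP. There were 3 libraries of cells with wild type uromodulin and 3 of cells with the C150S isoform, and both constructs were driven by the spleen focus-forming virus promoter. Per the study, TAL markers were not detected once the line had been immortalised, and both groups descend from that single line. Expression values were not analysed here, so nothing below compares wild type with C150S cells, and no value below has a replicate or a sampling error. Positions come from the deposited file unless RefSeq or GENCODE is named, and sequences come from RefSeq.

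A promoter is the stretch of DNA around a gene's start on which RNA polymerase and its general factors assemble. When a minus gene and a plus gene start close to each other, the stretch between them can serve as a bidirectional promoter, from which transcription leaves on both strands. Such promoters in mammals often lie in CpG islands, stretches of high GC content in which the dinucleotide CpG has not been depleted, and are best known at genes of metabolism, DNA repair and organelle upkeep that most cells use.

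The stretches between paired genes differed widely in their letters. A few are shown in sets, because the groups described below turn on them. All were read from RefSeq promoter windows on GRCm38, the assembly that mm10 names, and are written on the plus strand from 5' to 3', so that the minus gene lies to the left and the plus gene to the right. Capitals mark motifs found by letter matching on either strand: the TATA box (TATAAA), the GC box (GGGCGG), the CCAAT box (CCAAT, which reads ATTGG when it lies on the minus strand), an ETS factor site (CCGGAAG), and the ER stress response element (ERSE), which is CCAAT and CCACG with 9 bases between them, is written in capitals throughout and always includes a CCAAT box. The first set holds both pairs with an ERSE in a promoter window. The part of the Hsp90b1/BC030307 gap that could be read, 185 of 301 bases, has 2 ERSEs on opposite strands, and the first 300 bases of the Alg12/Creld2 gap of 327, printed up to that length, have 1. The Alg12/Creld2 pair was picked after the search had found it.
Hsp90b1/BC030307, chr10:86705510-86705694: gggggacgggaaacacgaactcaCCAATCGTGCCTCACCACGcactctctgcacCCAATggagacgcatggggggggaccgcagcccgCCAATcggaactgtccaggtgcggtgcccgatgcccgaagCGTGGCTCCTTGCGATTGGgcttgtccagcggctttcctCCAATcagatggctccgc
Alg12/Creld2, chr15:88819319-88819618: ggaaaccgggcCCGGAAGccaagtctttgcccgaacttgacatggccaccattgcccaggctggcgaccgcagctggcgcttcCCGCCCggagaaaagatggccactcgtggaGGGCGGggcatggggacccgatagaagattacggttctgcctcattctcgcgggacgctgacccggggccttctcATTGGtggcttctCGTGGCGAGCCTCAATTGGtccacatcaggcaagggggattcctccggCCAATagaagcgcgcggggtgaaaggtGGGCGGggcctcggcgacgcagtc

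The second set holds histone pairs, in which CCAAT boxes recur and GC content is low.
Hist1h2ae/Hist1h2bg, chr13:23571221-23571395: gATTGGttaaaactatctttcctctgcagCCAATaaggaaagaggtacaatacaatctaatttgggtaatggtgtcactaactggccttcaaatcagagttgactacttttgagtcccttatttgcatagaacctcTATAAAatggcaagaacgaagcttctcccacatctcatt
Hist1h2ah/Hist1h2bk, chr13:22035644-22035820: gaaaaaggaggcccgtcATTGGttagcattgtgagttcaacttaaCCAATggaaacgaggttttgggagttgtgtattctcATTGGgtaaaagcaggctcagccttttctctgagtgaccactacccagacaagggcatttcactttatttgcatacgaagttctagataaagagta

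The third set holds 2 pairs of collagen IV genes, of which Col4a1 and Col4a2 overlap by the 22 bases shown, a pair whose products both act in mitochondria, and Mrpl49/Fau, which joins a protein of the mitochondrial ribosome with one of the cytosolic ribosome.
Col4a1/Col4a2, chr8:11312805-11312826: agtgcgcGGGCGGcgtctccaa
Col4a4/Col4a3, chr1:82586850-82586920: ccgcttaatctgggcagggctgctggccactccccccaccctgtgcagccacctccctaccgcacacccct
Mrps12/Sars2, chr7:28741821-28741967: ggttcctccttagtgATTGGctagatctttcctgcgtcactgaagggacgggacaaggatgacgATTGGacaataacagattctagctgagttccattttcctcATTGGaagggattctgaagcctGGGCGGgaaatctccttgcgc
Mrpl49/Fau, chr19:6057752-6057887: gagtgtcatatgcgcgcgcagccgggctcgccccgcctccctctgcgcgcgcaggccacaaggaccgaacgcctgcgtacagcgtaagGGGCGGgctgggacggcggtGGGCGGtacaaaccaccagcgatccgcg

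The last set holds 2 zinc finger pairs on chromosome 17. All 52 bases between Zfp944 and Zfp758 occur again between Zfp942 and Zfp943, from position 26 of the 87 bases there, where the larger stretch also completes a GC box.
Zfp944/Zfp758, chr17:22361401-22361452: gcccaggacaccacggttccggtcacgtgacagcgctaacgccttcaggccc
Zfp942/Zfp943, chr17:21962465-21962551: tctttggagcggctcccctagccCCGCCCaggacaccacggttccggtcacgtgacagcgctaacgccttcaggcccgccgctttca

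The facing 5' ends lay close together. In 785 pairs (58.4%) the spans were apart, by a median of 135 bases, with quartiles of 71 and 263 and a range of 2 to 986. Of these, 302 (38.5%) had a gap of 100 bases or fewer, 522 (66.5%) of 200 or fewer, 628 (80.0%) of 300 or fewer and 707 (90.1%) of 500 or fewer. In the other 560 pairs (41.6%) the spans overlapped, by a median of 460.5 bases, with quartiles of 234.5 and 924.25 and a range of 3 to 104603. With overlaps written as negative distances, the median over all pairs was 50 bases, and 818 pairs (60.8%) lay within 300 bases on either side of 0. The pairs thus gathered in a narrow window around touching 5' ends, with a long tail of overlaps: 129 exceeded 1000 bases and 27 exceeded 10000.

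**Figure D1:**
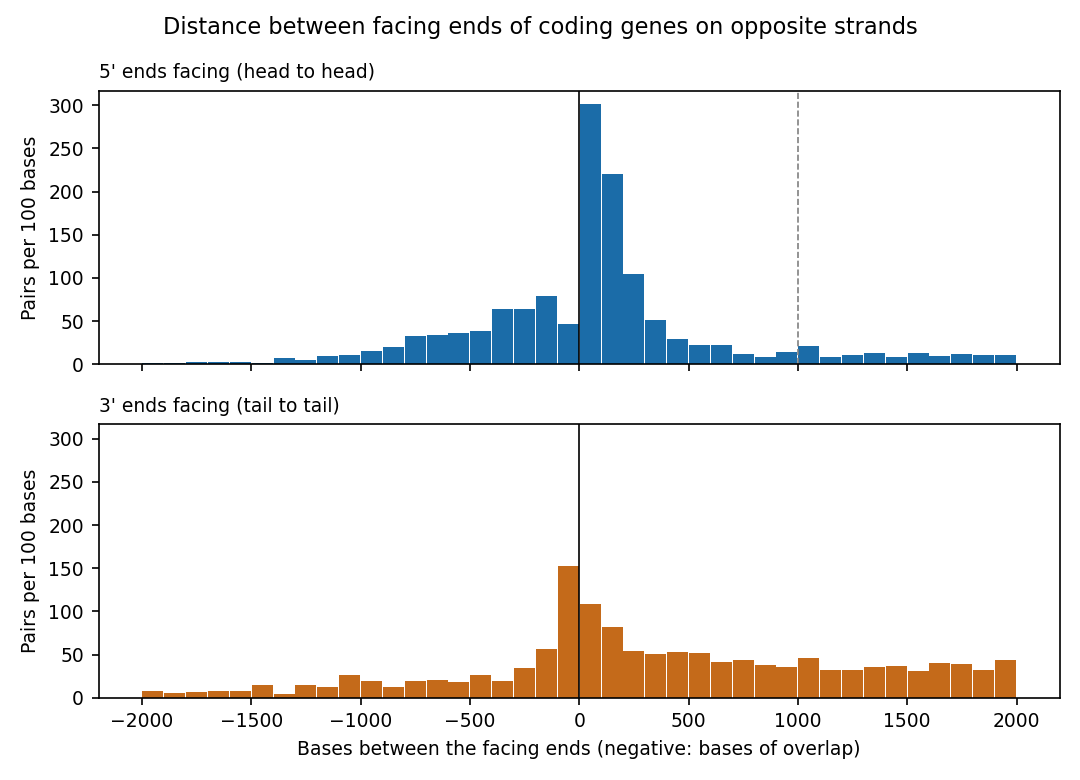
Number of pairs per 100 bases of distance between facing ends, for coding genes with 5' ends facing (upper panel) and with 3' ends facing (lower panel); negative distances are overlaps, and the dashed line marks the limit of 1000 bases. The upper panel peaks at 302 pairs in the bin from 0 to 99 bases, and the lower panel peaks at 153 pairs in the bin from -100 to -1.

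Tail-to-tail pairs, in which 3' ends face each other under the same limit of 1000 bases, show where the head-to-head arrangement differs. There were 1319 such pairs, nearly as many, but 759 of them (57.5%) overlapped and their median distance was -56 bases. Within 300 bases on either side of 0 lay 492 of them (37.3%), beside 60.8% of head-to-head pairs. The head-to-head pairs also thinned out faster with distance. From 0 to 999 bases there were 785 of them and from 1000 to 1999 bases 119, where tail-to-tail pairs numbered 560 and 369. These are complete counts of 1 annotation and were not tested against each other. Of the 2667 head-to-head genes, 540 (20.2%) also stood in a tail-to-tail pair, beside 11.5% of all coding genes.

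The shortest distances were a few bases. Exactly 2 bases separated Ndufs1, a subunit of respiratory complex I, from Eef1b2, a translation elongation factor. The same 2 bases lay between Mrps21, a protein of the mitochondrial ribosome, and the uncharacterised C920021L13Rik, between Slc7a6os and the arginine methyltransferase Prmt7, and between the dehydrogenase Dhrs1 and Nop9, a nucleolar protein of ribosome assembly. Capza1, which caps actin filaments, overlapped St7l by 3 bases, while RefSeq places their starts side by side without overlap. In the deposited annotation no pair abutted with a distance of 0. At the other end, the longest overlaps were those of the adenylate cyclase Adcy8 with the model Gm21798 (104603 bases), of the exchange factor Ngef with the sialidase Neu2 (63982 bases) and of Zfyve9 with 3110021N24Rik (61150 bases). By RefSeq the starts of Ngef and Neu2 lie 156 bases apart without overlap. These overlaps lay mostly over introns: Adcy8 and Gm21798 shared 0 exon bases, Ngef and Neu2 shared 123, and Zfyve9 and 3110021N24Rik shared 706.

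The limit of 1000 bases itself cut a thinly filled range. Just inside it were Btf3l4/Txndc12 at 986 bases and Asphd1/Sez6l2 at 980. Just outside were Serpina7/4930513O06Rik at 1006, Sgsm2/Tsr1 at 1010 and Smim7/Tmem38a at 1014.

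Overlap of spans did not always mean overlap of exons. With strand ignored, 474 pairs (35.2%) shared exon bases and 86 of the 560 overlapping pairs shared none. The shared stretch had a median of 172 bases, with quartiles of 100 and 315 and a range of 2 to 2455. The methods name a counting mode in which a read on the exons of several genes is assigned to none of them, so these stretches yield no counts if strand is ignored. The strand setting is not given in the sources used here. With strand used no pair can share exon bases, because the rule joins genes on opposite strands. How many reads this removed was not measured. Of the 2667 paired genes, 944 (35.4%) shared bases with their partner, where 13.9% of all coding genes shared bases with any other coding gene. The rule placed the pairs side by side, so nothing is read from that difference.

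Most of the shared bases were not coding in both genes. Of 118630 shared bases, 54018 (45.5%) were non-coding in both genes, 50287 (42.4%) were coding in 1 of them and 14325 (12.1%) were coding in both. Among the 474 pairs, 182 (38.4%) shared no coding base of either gene. Bases coding in both genes occurred in 96 pairs, with a median of 123.5 such bases, and in 75 of these (78.1%) at least 1 gene was an uncharacterised model, a name such as a Gm number or a RIKEN clone. Among all pairs the share with such a model was 23.9% (321 of 1345). The largest stretches coding in both were 540 bases in Dnaaf2/AC099934.1, 494 in Gm10760/Mctp1, 486 in 9330160F10Rik/2310047M10Rik, 462 in Chd3/Gm17305 and 435 in Ltbp2/D030025P21Rik. Each of these 5 pairs holds at least 1 uncharacterised model. Surf1 and Surf2, housekeeping genes of the surfeit cluster, shared 137 bases, of which 2 were coding in both.

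The share of a gene's exon bases that lay under its partner was small in most cases. Over the 948 gene sides with shared bases, the median was 5.36% of the gene's exon bases, and 443 (46.7%) were at 5% or less. In 28 the share exceeded 50%, and 23 of these were uncharacterised models, led by Gm17305 with 94.1% of its 507 exon bases under Chd3. None had all of its bases shared. Among characterised genes, Ubl5, a ubiquitin-like splicing factor, had 54.5% of its 3468 exon bases under Fbxl12, and all 1890 shared bases were non-coding in both. Sdhaf1, an assembly factor of respiratory complex II, had 65.9% of its 965 exon bases under E130208F15Rik. These 2 genes were picked after their values were seen.

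The most shared exon bases in a pair were 2455, in Kctd18/Sgol2, where Sgol2 protects centromeric cohesion. All of these were coding in 1 gene, and they made up 49.7% of the exon bases of Sgol2. By RefSeq the starts of this pair lie 25889 bases apart, so it would not meet the rule there. Next came Serinc4/Serf2 with 2296, Fbxl12/Ubl5 with 1890, Serinc4/Hypk with 1576 and B430305J03Rik/Rap2b with 1445, so that Serinc4 stood in 2 of these pairs. By RefSeq the starts of Serinc4 and Hypk lie 323 bases apart without overlap.

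**Figure D2:**
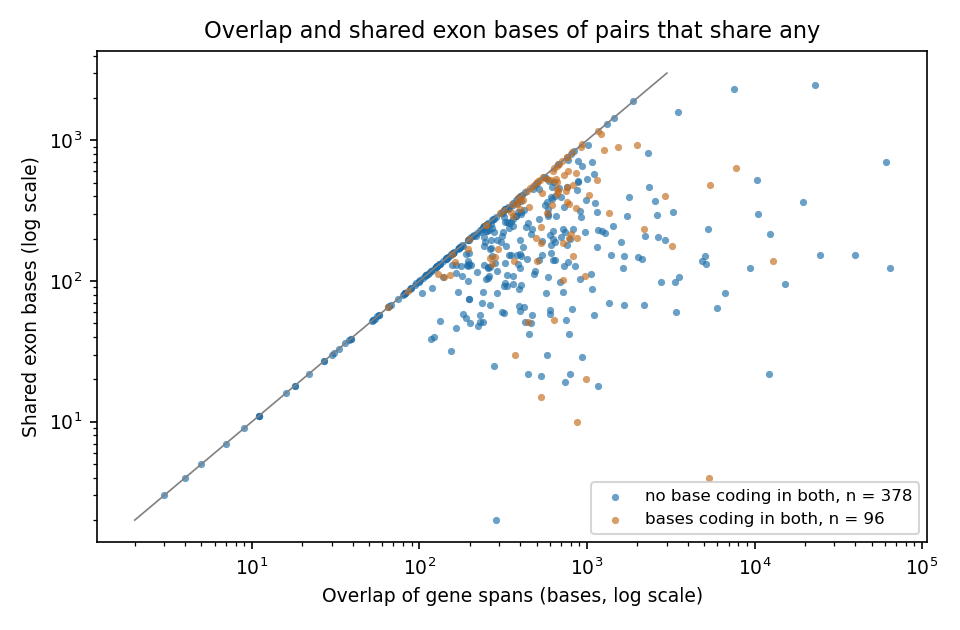
Bases of overlap between gene spans (x axis, log scale) and exon bases shared by both genes (y axis, log scale) for the 474 pairs that share any; the grey line marks equality. Points on the line are pairs whose whole overlap is exonic; 378 pairs share no base that codes in both genes and 96 do.

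The coding starts lay farther apart than the gene ends. Their median distance was 2046 bases, with quartiles of 439 and 8667. In 1219 pairs (90.6%) the coding starts did not cross, so that the start codon of each gene lay on its own side. This held for 434 of the 560 overlapping pairs as well, and 126 pairs in all had crossed starts. A span joins every transcript of a gene, and in 453 of the 560 overlapping pairs (80.9%) at least 1 transcript of the minus gene and 1 of the plus gene did not overlap. In the other 107 each combination of transcripts overlapped.

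RefSeq, which places the starts of the same genes from its own transcripts, gave fewer overlaps. Both starts were found for 776 pairs in which neither name matched the pattern for uncharacterised models. That pattern lets some clone names through, such as BC030307. Of these, 282 (36.3%) overlapped in the deposited annotation and 114 (14.7%) in RefSeq: 110 did in both, 172 in the deposited annotation alone and 4 in RefSeq alone. The RefSeq starts were a median of 153 bases apart, with quartiles of 55.75 and 384.25. In 108 of the 776 pairs (13.9%) they lay farther apart than the limit, so that the pair would not meet the rule by RefSeq. The share of close pairs changed less than the share of overlaps. Within 300 bases on either side of 0 lay 66.2% of these pairs by the deposited annotation and 61.5% by RefSeq. How many were close in both was not counted. In GENCODE release M21, a later annotation of the same assembly, 1302 pairs had both gene IDs, and 1195 had both as coding genes. Of these 1195 pairs, 1168 (97.7%) still met the rule, which is 86.8% of all head-to-head pairs. Of 450 pairs that overlapped and still met it, 447 overlapped there too. Of the pairs apart, 651 were still apart and 67 overlapped.

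The paired genes were somewhat larger than the others. Their median span was 17246 bases, beside 14466.5 in the 20064 other coding genes, and their median exon length was 3210 bases beside 2599.5. They had a median of 8 merged exons and 3 transcripts, beside 7 and 2. Only 214 of the paired genes (8.02%) had a single exon, beside 2943 (14.7%) of the others. The share of coding genes in pairs was highest among the autosomes on chromosome 8 (15.6%) and chromosome 11 (15.0%, 124 pairs), and low on chromosome 6 (6.91%) and the X chromosome (6.42%). On the Y chromosome it was 0.533%, the 2 models Gm21860 and Gm21857. The mitochondrial genome gave 1 pair, mt-Nd6 and mt-Cytb, 74 bases apart. It meets the rule by position, although the mitochondrial genome is transcribed as long units from a separate control region.

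Genes of mitochondria, DNA repair and RNA handling were often paired. Lists were drawn up from gene symbols, and each share is set beside the 11.7% of all coding genes. Of 26 lists, 17 had a higher share and 9 a lower one. No test was run on them. A symbol pattern can also take in a gene of another kind, as with Col4a3bp, a lipid transfer protein, among the collagens and Krtcap2 among the keratins.

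**Figure D3:**
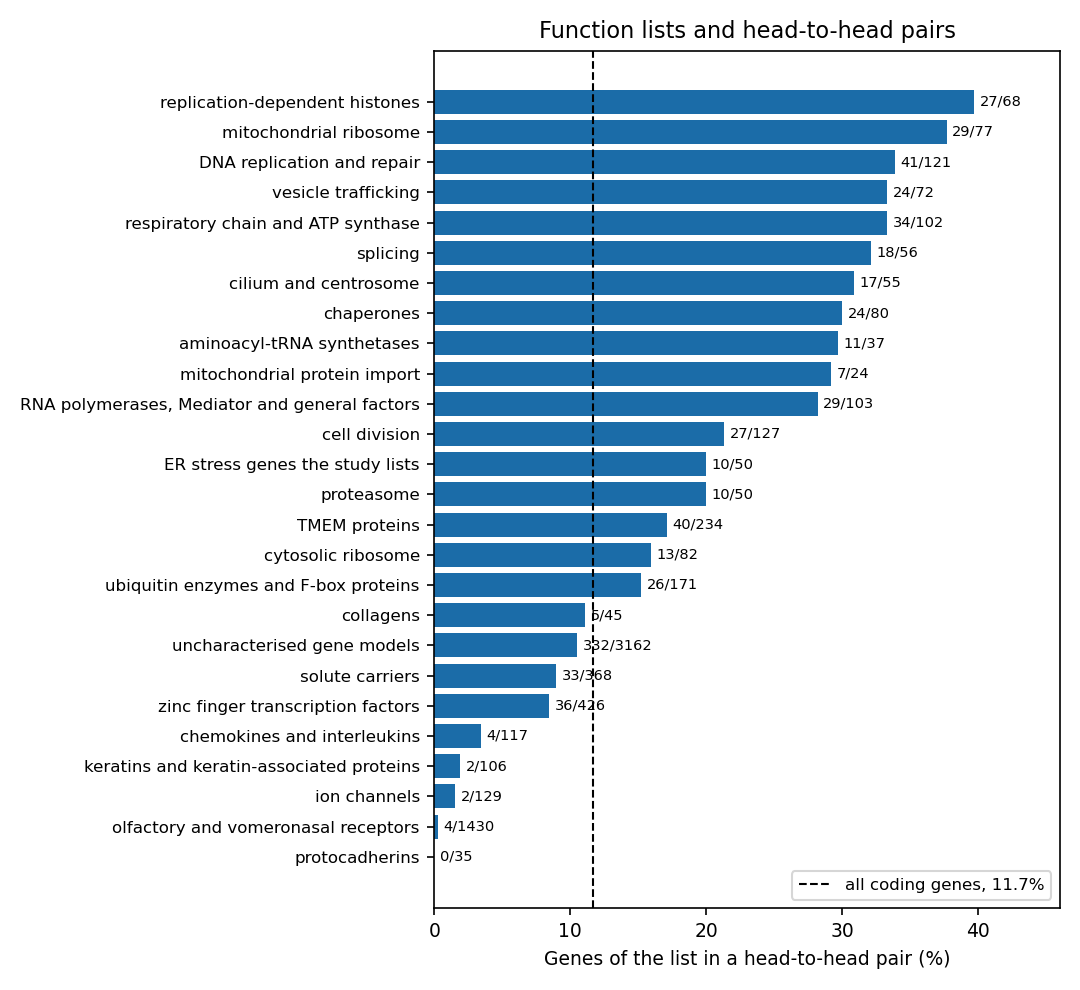
Share of the genes of each list that stand in a head-to-head pair (bars, in percent), with the number paired and the size of the list beside each bar; the dashed line is the share of all coding genes, 11.7%. Histones and the mitochondrial ribosome are at the top with 39.7% and 37.7%, and olfactory and vomeronasal receptors and protocadherins are at the bottom with 4 of 1430 and 0 of 35.

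Of 77 proteins of the mitochondrial ribosome, 29 (37.7%) were paired, of 102 genes of the respiratory chain and ATP synthase, 34 (33.3%), and of 24 import proteins, 7 (29.2%). The cytosolic ribosome stood nearer the background, with 13 of 82 (15.9%). Tail to tail, where 11.5% of all coding genes stood, the shares were 14.3% for the mitochondrial ribosome, 16.7% for the respiratory chain, 33.3% for import proteins and 20.7% for the cytosolic ribosome. High shares were thus not limited to facing 5' ends. In counts, import proteins stood at 7 head to head and 8 tail to tail, and the cytosolic ribosome at 13 and 17. These small differences were not tested. Partners were of many kinds. Mrps18c lay 28 bases from the DNA helicase Helq, and Mrps34 lay 28 bases from Eme2, a subunit of a DNA repair nuclease. Sdha, the flavoprotein of complex II, lay 28 bases from Ccdc127, and its fellow subunit Sdhd lay 51 bases from the import protein Timm8b. Cox15, which makes heme A for cytochrome oxidase, overlapped Cutc by 5 bases. Within the mitochondrial ribosome list itself a single pair was found, Mrpl46 and Mrps11, which overlapped by 413 bases.

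Genome maintenance and RNA synthesis came next. Of 121 genes of DNA replication and repair, 41 (33.9%) were paired, among them Lig4, the ligase of end joining, 20 bases from Abhd13, and Xpc, which detects DNA damage, 43 bases from the RNA-binding protein Lsm3. Orc3 of the origin recognition complex lay 12 bases from Rars2, the mitochondrial arginyl-tRNA synthetase. In splicing the share was 18 of 56 (32.1%), in RNA polymerases, Mediator and general factors 29 of 103 (28.2%), and in aminoacyl-tRNA synthetases 11 of 37 (29.7%). Tail to tail the shares were 23.1% for replication and repair, 12.5% for splicing, 21.4% for polymerases and their factors and 13.5% for the synthetases. Gtf2h3, a subunit of TFIIH, lay 8 bases from the initiation factor subunit Eif2b1.

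Vesicle trafficking reached 24 of 72 genes (33.3%), cilium and centrosome 17 of 55 (30.9%) and chaperones 24 of 80 (30.0%), with 20.8%, 18.2% and 22.5% tail to tail. Cope, a coat protein of COPI vesicles, lay 28 bases from the RNA helicase Ddx49. Ift20, of the intraflagellar transport complex, lay 28 bases from Tnfaip1, and the chaperonin subunit Cct5 lay 4 bases from Fam173b. Cell division genes (27 of 127, 21.3%), proteasome subunits (10 of 50, 20.0%), proteins named only as transmembrane (40 of 234, 17.1%) and ubiquitin enzymes and F-box proteins (26 of 171, 15.2%) were closer to the background.

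Large families with tissue-restricted members were seldom paired. Olfactory and vomeronasal receptors gave 4 of 1430 genes (0.28%), ion channels 2 of 129 (1.55%), keratins 2 of 106 (1.89%), chemokines and interleukins 4 of 117 (3.42%) and protocadherins 0 of 35. Tail to tail the receptors (0.14%), keratins (0.943%) and protocadherins (0 of 35) were as rare, while ion channels (7.75%) and chemokines and interleukins (10.3%) lay nearer the 11.5% of all coding genes. The 2 channel genes overlapped their partners by long intronic stretches, Kcnab2 with Nphp4 by 1166 bases and Cacna1d with Dcp1a by 11592, with 0 shared exon bases in both cases. Zinc finger factors (36 of 426, 8.45%), solute carriers (33 of 368, 8.97%), uncharacterised models (332 of 3162, 10.5%) and collagens (5 of 45, 11.1%) lay just under the background.

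With uncharacterised models set aside, both genes came from the same list in 27 pairs, and 13 of these were histones. Of 68 replication-dependent histone genes, which are made in S phase and encode the proteins that DNA is wound on, 27 (39.7%) were paired, and 26 of them with another histone. In 12 pairs an H2A gene faced an H2B gene, and in the other, Hist1h2bh/Hist1h3f, an H2B gene faced an H3 gene. Of the 13 pairs, 12 lay on chromosome 13 and 1, Hist2h2ac/Hist2h2be, on chromosome 3. Their gaps were narrow in spread, with a median of 242 bases and a range of 167 to 692, and none overlapped. The remaining paired histone, Hist2h2ab, lay 155 bases from Bola1, whose product acts in mitochondria.

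The 11 histone gaps that could be read all held at least 2 CCAAT boxes, and up to 5. Of the 11 gaps, 5 held a TATA box, as Hist1h2ae/Hist1h2bg does in the sequence above, where a TATA box on the plus strand follows CCAAT boxes on both strands. Their GC content was 38.3 to 47.9%, with a median of 42.4%. The median over all 546 gaps that could be read was 63.9%, and 36.1% of those gaps held a CCAAT box and 2.75% a TATA box. The same histone gaps are among the 546.

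The other same-list pairs held products that work together in several cases. Col4a1 and Col4a2, which form the common collagen IV of basement membranes, overlapped by 22 bases, all non-coding, and Col4a4 and Col4a3, of the collagen IV network of the glomerular basement membrane, lay 71 bases apart. Hspd1 and Hspe1, the chaperonin and co-chaperonin of mitochondria, overlapped by 112 non-coding bases. Hars and Hars2, the cytosolic and mitochondrial histidyl-tRNA synthetases, overlapped by 198 bases. Mcm4 of the replicative helicase lay 465 bases from Prkdc, the DNA-dependent protein kinase. Zinc finger factors gave 4 such pairs: Zfp668/Zfp646 overlapped by 33 bases, and Zfp944/Zfp758, Zfp942/Zfp943 and Zbtb25/Zbtb1 lay 52, 87 and 663 bases apart. Tmem176b and Tmem176a lay 108 bases apart, and Fbxo44 and Fbxo2 lay 138 bases apart.

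A list of 24 candidate head-to-head pairs, drawn up by name, was looked up, and 18 of them met the rule. The list is not a reference set, so this is no measure of recovery. Ppat and Paics, enzymes of purine synthesis, overlapped by 272 non-coding bases. Psmb9, an immunoproteasome subunit, and Tap1, a peptide transporter of antigen presentation, overlapped by 212 non-coding bases, while RefSeq places their starts 225 bases apart. Mrps12 of the mitochondrial ribosome and Sars2, the mitochondrial seryl-tRNA synthetase, lay 147 bases apart, and the sequence above holds 3 CCAAT boxes, all on the minus strand. Mrpl49 and Fau, which encodes a ribosomal protein of the small subunit, lay 136 bases apart, with 2 GC boxes.

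Among the genes of DNA damage and growth control, Wrap53 and Trp53 lay 103 bases apart, Brca1 and Nbr1 193, Atm and Npat 306, and Tsc2 and Nthl1 52. Cdc45, a replication factor, overlapped Ufd1l by 209, and Ndufs3 of complex I overlapped Kbtbd4 by 88. By RefSeq neither pair overlaps, with starts 321 and 18 bases apart. Abcg5 and Abcg8, which together form a sterol transporter, overlapped by 6710 bases of span but by 82 of exon. The 6 pairs that did not meet the rule were of 3 kinds. Col4a5/Col4a6 (1308 bases) and Psmb1/Tbp (1611) were among those with facing 5' ends too far apart, Acat2/Tcp1 and Mettl14/Sec24d had facing 3' ends, and Polr3k and Snrnp25 lay on different chromosomes.

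**Figure D4:**
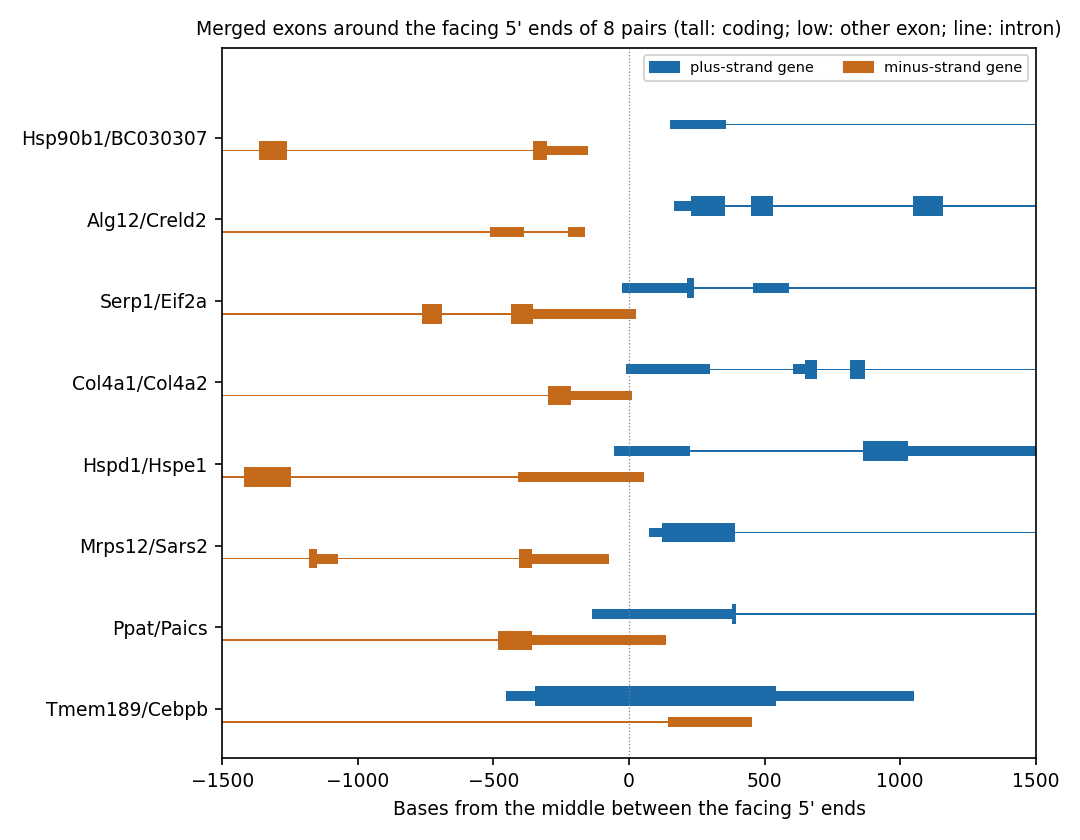
Merged exons of 8 pairs within 1500 bases of the middle between the facing 5' ends (x axis, in bases), with the plus gene in blue above and the minus gene in orange below; tall boxes are coding, low boxes other exon and lines introns. Hsp90b1/BC030307 and Alg12/Creld2 stand 301 and 327 bases apart, while Cebpb lies across the first exon of Tmem189, with 312 shared exon bases.

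Of the 50 genes that the study lists in ER stress pathways, 10 (20.0%) were paired, beside 11.7% of all coding genes. The study chose that list on these samples, so it is not independent evidence of anything about their expression. The number of them in tail-to-tail pairs is also 10, where 11.5% of all coding genes stood. Those that took part in protein folding were Hsp90b1, the ER chaperone of the Hsp90 family, 301 bases from BC030307, Dnajb11, an ER co-chaperone, 275 bases from Tbccd1, Hspa1l, of the Hsp70 family, 548 bases from its family member Hspa1a, and the disulfide isomerase Pdia3. Pdia3 overlapped Catsper2, a sperm calcium channel, by 18 non-coding bases, or 0.573% of its exon bases. By RefSeq the starts of Catsper2 and Pdia3 lie 109 bases apart without overlap.

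Genes of protein import, export and degradation made up most of the rest. Sec61b, a subunit of the translocation channel, lay 324 bases from Alg2, a mannosyltransferase of N-glycan synthesis. Surf4, a receptor for ER export, lay 118 bases from Gm711. Serp1, which associates with the translocation channel under stress, overlapped the initiation factor Eif2a by 53 non-coding bases (2.17% of its exon bases). Fbxo2, which recognises glycans on proteins to be degraded, lay 138 bases from Fbxo44, and Tmem129, a ubiquitin ligase of ER degradation, lay 150 bases from Tacc3, a spindle protein. Among the 10 the most shared bases were found in the transcription factor Cebpb. Its span overlapped that of Tmem189 by 908 bases, and it shared 312 exon bases (20.7% of its own), all coding in 1 gene.

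The ERSE was found in 7 of the 41 genes of this list that had a RefSeq promoter window, and Hsp90b1 was the only one among the 10 that were paired. Over all promoters it was rare, in 23 of 15097 windows (0.152%), and paired genes stood at the same level (3 of 1948, 0.154%). Those 3 were Hsp90b1, Alg12, a mannosyltransferase of N-glycan synthesis, and Creld2, an ER protein induced by stress, the last 2 sharing the single element shown above. The deposited annotation begins BC030307 301 bases from Hsp90b1, but RefSeq places its start 7320 bases from that of Hsp90b1, with a window of 43.3% GC. By RefSeq this pair would not meet the rule.

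Promoter windows of paired genes were richer in CpG than those of other genes. Windows ran from 250 bases before to 50 after the RefSeq start. They were found for 83.4% of 2335 paired genes and 76.3% of 17234 others once uncharacterised models were set aside, a step taken after coverage had been seen. A window was called CpG-rich at a GC content over 50% and a ratio of observed to expected CpG over 0.6. This held for 1509 of 1948 paired genes (77.5%) and for 6030 of 13149 others (45.9%), with 49.9% over all 15097. Median GC content was 62.0% in paired genes and 56.7% in others, the median ratio 0.825 and 0.582, and the median number of CpG 23 and 14 per window. The windows of both genes overlapped in 512 of 776 pairs (66.0%), so the paired genes are not independent of each other.

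**Figure D5:**
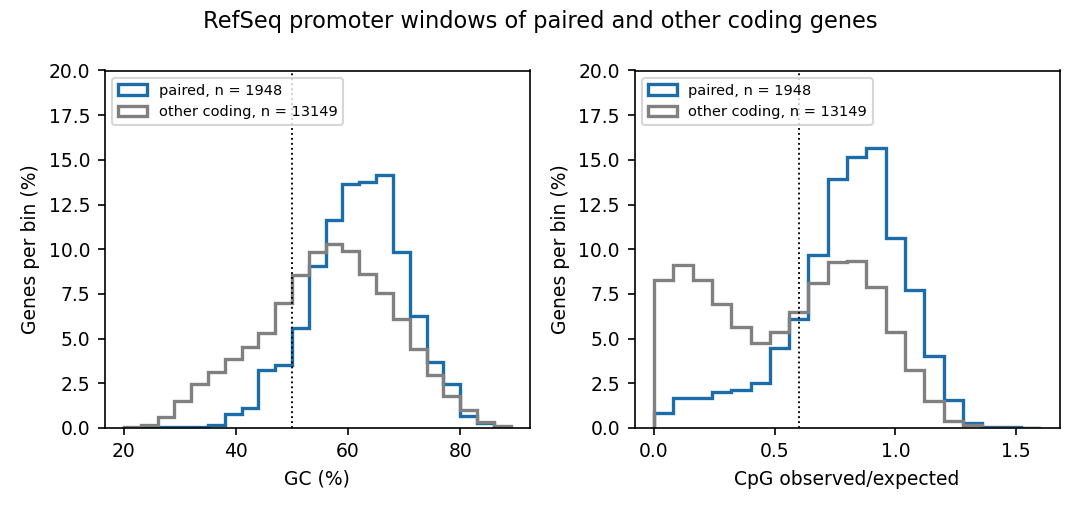
GC content (left, in percent) and ratio of observed to expected CpG (right) in RefSeq promoter windows of 1948 paired genes (blue) and 13149 other coding genes (grey), as percent of genes per bin; dotted lines mark the limits of 50% and 0.6. The other genes have a second peak of the CpG ratio near 0.1 that paired genes lack; the medians are 0.825 and 0.582.

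Both genes were CpG-rich in 536 of 776 pairs (69.1%), 1 of them in 153 (19.7%) and neither in 87 (11.2%). The share followed the spacing. Both were CpG-rich in 83.9% of 199 pairs with a gap of up to 100 bases, in 76.7% of 202 with a gap over 100 and up to 300 and in 75.2% of 113 with an overlap of up to 300. It was 59.5% of 111 pairs with an overlap over 300 and up to 1000 bases, 48.4% of 93 with a gap over 300 and 31.0% of 58 with an overlap over 1000. Windows of close pairs share bases, and the part of that in this order was not tested.

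The gap between paired and other genes was also seen within many function lists, but not in all. Paired zinc finger factors were CpG-rich in 29 of 32 cases (90.6%) and the others in 143 of 298 (48.0%), and paired solute carriers in 19 of 22 (86.4%) and the others in 114 of 259 (44.0%). The difference was 92.6% to 70.0% in the mitochondrial ribosome, 88.9% to 79.0% in RNA polymerases and their factors and 87.5% to 78.5% in DNA replication and repair. Splicing genes stood at 15 of 16 (93.8%) and 28 of 31 (90.3%), and ER stress genes at 8 of 10 (80.0%) and 25 of 31 (80.6%). Import proteins stood at 71.4% in both. In 3 further lists the paired genes were lower: histones with 2 of 24 paired genes CpG-rich (8.33%) and 10 of 38 others (26.3%), the cytosolic ribosome with 9 of 12 and 41 of 50, and vesicle trafficking with 14 of 18 and 30 of 36.

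Several motifs differed in frequency between the same windows. A TATA box was found on either strand in 102 paired genes (5.24%) and in 13.9% of others (12.8% of all). Within the 50 bases before the start, and on the gene's own strand only, it was found in 1.23% and 3.71%. A GC box, the letters bound by Sp1, was found in 65.2% of paired genes and 48.2% of others (50.4% of all). The CCAAT box, to which NF-Y binds, was at 40.2% and 38.8% (39.0% of all), nearly level.

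Motifs of factors linked to housekeeping genes were more common in paired genes. The ETS site was found in 27.0% of paired genes and 10.7% of others (12.8% of all), the YY1 site (AAGATGGCG) in 4.72% and 1.78% (2.16% of all), and the NRF-1 site (GCGCATGCG), whose factor drives genes of mitochondria, in 3.80% and 2.46% (2.64% of all). The CREB site (TGACGTCA) stood at 4.11% and 2.24% (2.48% of all) and the E2F site (TTTCGCGC) at 1.49% and 0.357% (0.503% of all). Both strands were searched, except for the TATA box within 50 bases before the start, and a match says only that these letters lie in the window. Median GC content differed between both groups as given above, and its part in these shares was not tested.

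The stretches between the genes were read from the same windows, so their composition is not a separate measurement. Of 773 gaps of 10 bases or more, 546 could be read whole, and their median GC content was 63.9%, with quartiles of 57.5 and 70.0%. They held 5850 CpG in 71726 bases, or 8.16 per 100 bases. The gap between Mrpl49 and Fau, at 72.1% GC with 20 CpG in 136 bases, and that between Fbxo44 and Fbxo2, at 77.5% with 14 CpG in 138, were GC-rich. Those of Mrps12/Sars2, with 49.7% GC and 5 CpG in 147 bases, and of Tmem176b/Tmem176a, with 63.9% GC and 0 CpG in 108 bases, were poorer in CpG.

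Genes that stood in more than 1 pair numbered 22. Frs3, an adaptor of growth factor receptors, had 3 minus-strand partners: Tomm6, a subunit of the mitochondrial import pore, 643 bases away, and Prickle4 and Gm21981, which overlapped it by 5707 and 5426 bases with 0 shared exon bases. By RefSeq the start of Frs3 lies 6820 bases from that of Tomm6 and 470 bases from that of Prickle4, with no overlap. Arfip2 overlapped the import protein Timm10b by 361 bases and lay 145 bases from Dnhd1. RefSeq places the starts of Arfip2 and Timm10b 28 bases apart. Atf5, a stress-responsive transcription factor, overlapped the nuclear pore protein Nup62 by 571 bases and Il4i1 by 289, and shared 82 exon bases with each, although RefSeq places the start of Il4i1 19629 bases away. Bysl, a factor of ribosome assembly, lay 89 bases from the Mediator subunit Med20 and 96 from Gm20517, and 2210404J11Rik lay 81 bases from Tcte3 and 103 from Gm3448. Such pairs share a 5' end and are not separate loci.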

How the data were processed

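RNA of 6 libraries was sequenced, 3 of mTAL cells with wild type and 3 with C150S uromodulin. Per the submitters' processing notes, reads were handled with CASAVA 1.8, STAR 2.3.0, HTSeq and limma on mm10. The deposited file is the gene annotation for counting. Its measurement columns hold start and end positions, not counts, and they were used as the authors gave them. Expression values were not analysed here, so there is no depth, no precision per library and no test between groups.

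Pairs, gaps, shared exon bases (strand ignored, as the kit does not keep strand) and lists by symbol were computed with scripts (Python 3.11.15; numpy 2.4.6; scipy 1.17.1 for intervals; matplotlib 3.10.9 for plots). On a simulated annotation the steps found 1009 of 1009 pairs. The members and lists were chosen with earlier results of these data known. Genes named are the extremes of each measure, the ER stress list, the candidate pairs drawn up by name, same-list pairs and genes in several pairs. The 3 closest pairs of each list, the sequences shown and the genes with the largest shared shares were picked after the values were seen. Promoters of 15097 genes were matched to RefSeq (GRCm38.p6) by symbol, gene ID or synonym. Alternatives were other limits, spans, annotations, motif windows and sets of genes. Same-list and closest pairs are given in part, and 3 pairs are not reported here.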

Additional observations from a re-analysis of the deposited data

How the results depend on the processing

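The number of pairs, 1345, stayed between 1024 and 1464 under 7 alternatives: limits of 500 and 2000 bases, overlaps of at most 1000 bases, coding transcripts only, names with several gene IDs, GENCODE M21 spans and no uncharacterised models. The median distance, 50 bases, was 65.5 with overlaps of at most 1000 bases, 61.0 with coding transcripts only and 38.0 with a limit of 500. Without uncharacterised models, an alternative added after seeing the data, 372 pairs overlapped in place of 560 and 314 shared exon bases in place of 474, which is 36.3% and 30.7% of the fewer pairs, beside 41.6% and 35.2%. With coding rows only 96 pairs shared bases, and with strand used 0 did, which follows from the construction. The CpG-rich share, 77.5%, was 67.0% at limits of 55% GC and 0.65 (38.1% of others). The TATA box share, 5.24% on either strand, was 1.23% within 50 bases before the start on the gene's own strand (3.71% of others). Strand and window length thus changed together. With RefSeq starts, also added later, 61.5% of pairs lay within 300 bases and 14.7% overlapped, in place of 66.2% and 36.3%. No paired analysis was possible because no test compared the groups. Depth limits none of these values. Gene spans join all transcripts, gaps were read only where RefSeq windows reach, and symbol lists are incomplete.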
